A study of Rattus norvegicus with 9 samples.

Results

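The genes described here are markers of the endothelium, the cells that line blood and lymphatic vessels. They comprise 34 gene symbols chosen by name as pan-endothelial, tip cell, venous or lymphatic markers, and 33 of them were listed in the deposited table of 17602 genes and were above 0 TPM in 3 or more libraries. Robo4 was not analysed here. TPM is a transcript's share of a library after scaling by transcript length, set to the same total in every library. Prox1 was the member nearest to the limit of the rule, with a value above 0 TPM in 8 of 9 libraries, and the other 32 were above 0 TPM in every library. All 33 were among the 16512 genes tested.

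RNA was sequenced from knees of wild-type male Lewis rats aged 10 to 12 weeks, with 3 libraries in each group. The intact group was synovium, the vascular lining tissue of the joint, from around the medial meniscus of rats without surgery. The sham group was the corresponding synovium 1 week after the joint capsule was opened and closed. The pMx group was tissue regenerating 1 week after partial medial meniscectomy, the excision of the front of that meniscus. Synovium around the regenerating tissue had been removed, so surgery and tissue type cannot be told apart in pMx versus sham. The labels call the libraries biological replicates but do not say which animal or knee each came from. The p-values therefore measure the spread between these samples.

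Endothelial cells of resting vessels hold together through VE-cadherin and claudin-5 and are kept quiescent by angiopoietin signaling through the receptor TIE2. When a vessel sprouts, VEGF acts on VEGFR2, and a leading tip cell guides the new branch while Notch signaling from its ligand DLL4 holds back the cells beside it. Venules present receptors that catch leukocytes, and lymphatic endothelium, specified by the transcription factor PROX1, drains fluid and cells from the tissue. Synovium normally holds a dense bed of capillaries, venules and lymphatics.

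Promoters of 6 members that rose or fell in pMx versus sham are shown first, as the DNA next to the genes whose values follow. The RefSeq promoter table of the rat build GRCr8 held 19 of the 33 members, each with 250 bases before and 50 bases after the annotated start. The TPM values were made on another build, mRatBN7.2. Capitals mark each match on either strand of the ETS strings CAGGAAG and CCGGAAG or of the NF-kB string GGGNTTTCC. The first set holds Apln (chrX:132091197-132091496, minus strand), a member that rose in pMx versus sham, and the lymphatic members Mmrn1 (chr4:91233166-91233465, plus strand) and Lyve1 (chr1:174410928-174411227, minus strand), which had the largest falls on the log2(TPM + 1) scale.
Apln: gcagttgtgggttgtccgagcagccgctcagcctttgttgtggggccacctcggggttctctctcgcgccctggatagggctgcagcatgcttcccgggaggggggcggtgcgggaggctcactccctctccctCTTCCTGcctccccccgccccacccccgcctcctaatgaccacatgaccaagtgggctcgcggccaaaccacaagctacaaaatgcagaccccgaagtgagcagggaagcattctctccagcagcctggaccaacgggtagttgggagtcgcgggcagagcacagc
Mmrn1: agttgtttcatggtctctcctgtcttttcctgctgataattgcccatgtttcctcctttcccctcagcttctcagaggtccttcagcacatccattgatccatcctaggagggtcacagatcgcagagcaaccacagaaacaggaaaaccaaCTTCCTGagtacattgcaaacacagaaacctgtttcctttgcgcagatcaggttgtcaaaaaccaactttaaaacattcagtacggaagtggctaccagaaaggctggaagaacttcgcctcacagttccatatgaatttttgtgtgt
Lyve1: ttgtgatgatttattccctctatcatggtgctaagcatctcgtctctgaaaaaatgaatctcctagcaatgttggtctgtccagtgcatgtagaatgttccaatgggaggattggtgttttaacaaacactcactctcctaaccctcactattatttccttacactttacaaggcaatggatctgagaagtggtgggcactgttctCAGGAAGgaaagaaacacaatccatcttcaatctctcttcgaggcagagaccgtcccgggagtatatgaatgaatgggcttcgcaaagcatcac

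The second set holds 3 blood vessel members that fell in pMx versus sham, the venular adhesion gene Vcam1 (chr2:206742734-206743033, minus strand), the tight junction gene Cldn5 (chr11:95718549-95718848, minus strand) and the sialomucin gene Emcn (chr2:228564289-228564588, plus strand).
Vcam1: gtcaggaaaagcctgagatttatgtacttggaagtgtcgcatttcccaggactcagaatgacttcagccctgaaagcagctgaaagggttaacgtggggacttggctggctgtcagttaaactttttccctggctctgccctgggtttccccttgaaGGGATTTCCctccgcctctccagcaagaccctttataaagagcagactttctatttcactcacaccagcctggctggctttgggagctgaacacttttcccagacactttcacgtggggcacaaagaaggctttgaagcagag
Cldn5: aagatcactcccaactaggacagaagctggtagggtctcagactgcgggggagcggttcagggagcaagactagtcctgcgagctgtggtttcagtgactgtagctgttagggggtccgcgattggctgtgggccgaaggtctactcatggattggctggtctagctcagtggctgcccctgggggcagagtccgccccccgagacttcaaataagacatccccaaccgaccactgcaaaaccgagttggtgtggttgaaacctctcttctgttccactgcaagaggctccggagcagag
Emcn: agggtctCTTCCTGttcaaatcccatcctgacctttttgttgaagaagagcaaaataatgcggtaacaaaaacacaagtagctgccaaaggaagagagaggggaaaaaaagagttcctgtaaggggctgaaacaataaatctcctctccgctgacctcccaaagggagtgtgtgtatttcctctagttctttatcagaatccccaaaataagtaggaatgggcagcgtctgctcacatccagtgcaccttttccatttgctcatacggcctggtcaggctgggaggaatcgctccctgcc

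The string CAGGAAG was found in 7 of the 19 member promoters (36.8%), those of Emcn, Plvap, Egfl7, Erg, Apln, Lyve1 and Mmrn1, and in 12.4% of all 27457 promoters of the table. In pMx versus sham, Apln among these rose, Emcn, Plvap, Lyve1 and Mmrn1 fell, and Egfl7 and Erg did not pass the test. The NF-kB string was found beside Vcam1 alone among the 19 members (5.26%) and in 1.58% of all promoters. CCGGAAG and the forkhead string TGTTTAC were in none of the 19, and in 9.22% and 3.76% of all promoters. The SOX string ACAATG was in 2 member promoters, those of Erg and Nos3 (10.5%, against 13.0% of all), and the hypoxia response string ACGTG in 3, those of Clec14a, Mmrn2 and Vcam1 (15.8%, against 19.7%). Both strands were searched, the ETS strings and the reverse complement of the NF-kB string share the letters GGAA, and a match is only a description of these letters in this window.

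Together the 33 members made up a small part of the RNA, and their summed level was lower in sham than in intact libraries and lowest in pMx. The sum was 2914, 3179 and 2472 TPM in intact replicates 1, 2 and 3, 2145, 2220 and 2118 TPM in the sham replicates and 1650, 1702 and 2045 TPM in the pMx replicates. No group overlapped another in this sum. The RNA integrity numbers listed for the 9 samples moved with the same groups, lowest in intact, higher in sham and highest in pMx without overlap, and their part in the results was not tested. The endothelial markers Pecam1 and Cdh5 were at 149.12 TPM or more and at 97.69 TPM or more in every library, so endothelial RNA was present in all 3 tissues. Bulk RNA cannot tell fewer endothelial cells from less RNA per cell. Plvap, which encodes the diaphragm protein of fenestrated capillaries, was the highest member in the intact and sham groups, and Eng, which encodes the TGF-beta co-receptor endoglin, was the highest in the pMx group.

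**Figure D1:**
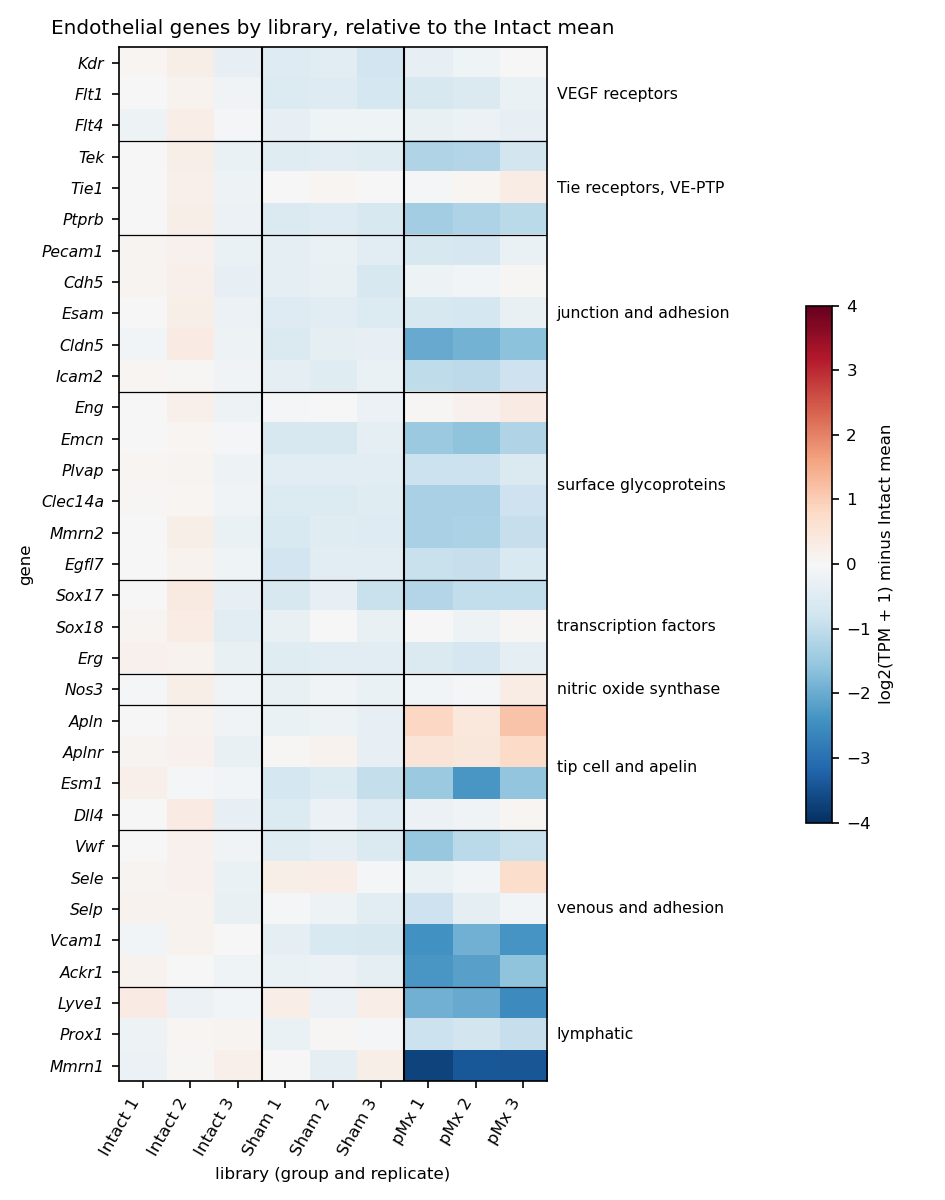
Each row is a member and each column a library, with color giving log2(TPM + 1) minus the mean of the 3 intact libraries and horizontal lines separating the functional groups. Mmrn1, Lyve1, Vcam1, Ackr1 and Cldn5 are among the darkest blue in all 3 pMx libraries, while Apln and Aplnr are red in all 3 pMx libraries.

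The depth of the libraries is unknown, since TPM keeps no read numbers. From 15644 to 16125 genes were above 0 TPM in a library, and each library summed to 1000000 TPM within rounding. Intact replicate 3 stood apart, with 4.57% of its TPM in a list of 10 skeletal muscle genes against 0.00703% to 0.326% in the other 8 libraries. It was also the lowest intact library for most members of blood endothelium, and its part in the results was measured by leaving it out.

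For pMx versus sham, which asks how the regenerating tissue differs from operated synovium, 15 of the 33 members fell, 2 rose and 16 did not pass the test. The test was limma on log2(TPM + 1) over all 9 libraries with Benjamini-Hochberg adjustment over 16512 genes, and a member passed with an adjusted p below 0.05. The falls were 45.5% of the members, where 18.9% of all genes tested fell. The rises were 6.06%, where 17.7% of all genes rose. The median log2 fold change of the members was -0.25, against -0.01 over all genes. With the threshold of the study for differentially expressed genes (DEGs), which adds an absolute log2 fold change above 1, 6 members were lower (Cldn5, Esm1, Vcam1, Ackr1, Lyve1 and Mmrn1, 18.2%, against 4.85% of all genes). Apln was the 1 higher DEG (3.03%, against 3.36%). The 3 pMx libraries all lay below the 3 sham libraries for 16 members (48.5%, against 29.0% of all genes) and all above them for 7 (21.2%, against 27.0%). Without intact replicate 3, there were again 15 falls (45.5%, against 23.5% of all genes in that fit), and the rises numbered 5 (15.2%, against 22.1%), with Kdr, Cdh5 and Eng added.

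For sham versus intact, which asks what opening the joint does to the synovium, 11 of the 33 members fell and none rose. Those that fell were Kdr, Flt1, Ptprb, Esam, Icam2, Emcn, Plvap, Clec14a, Mmrn2, Egfl7 and Vcam1. The falls were 33.3% of the members, where 5.97% of all genes fell and 6.73% rose. At an unadjusted p below 0.05 in limma, 20 members were lower (60.6%, against 15.0% of all genes) and 0 higher (against 13.8%). No member was a DEG in either direction, where 0.533% of all genes were lower and 1.42% higher DEGs. Sham libraries all lay below the intact libraries for 19 members (57.6%, against 16.4% of all genes), and no member was the other way round (against 14.2%). The median log2 fold change was -0.43, against -0.02 over all genes. These calls moved with single libraries. The count of falls was 3, 0 and 17 without intact replicates 1, 2 and 3, it was 0, 0 and 4 without sham replicates 1, 2 and 3, and it was 7 without pMx replicate 1, where from 1.54% to 11.8% of all genes fell in the same fits.

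The direct comparison of pMx with intact shares its libraries with both comparisons above. In it, 21 members were lower (63.6%, against 27.1% of all genes) and Apln and Aplnr were higher (6.06%, against 23.4%). The lower DEGs numbered 13 (39.4%, against 7.89%) and the higher DEGs 0 (against 6.40%), and Apln and Aplnr remained the 2 members higher at an unadjusted p below 0.05 in limma. Libraries of the groups did not overlap for 22 lower members (66.7%, against 30.6%) and 2 higher members (6.06%, against 26.9%). The median log2 fold change was -0.76, against -0.03 over all genes.

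**Figure D2:**
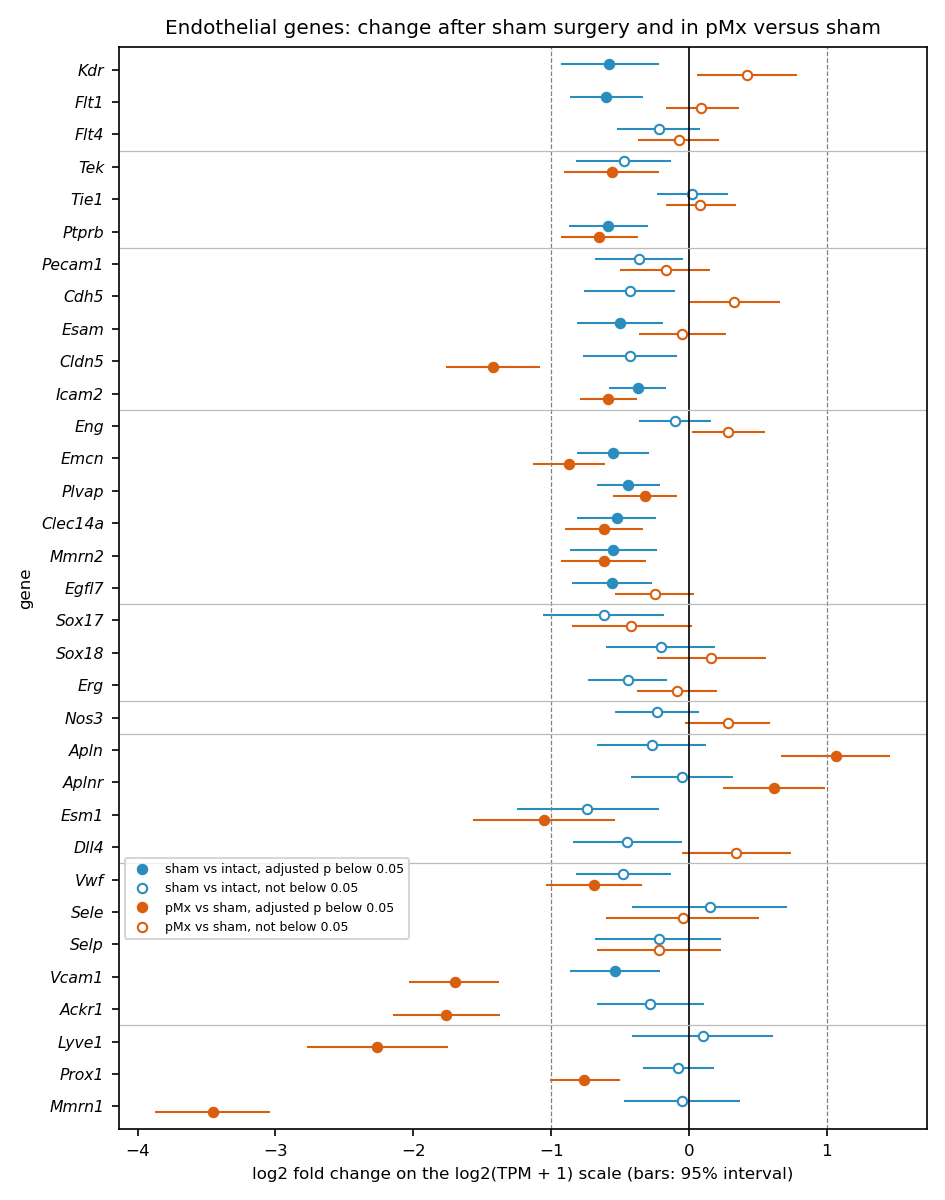
Points are log2 fold changes on the log2(TPM + 1) scale with 95% intervals, in blue for sham versus intact and in orange for pMx versus sham, and filled where the adjusted p was below 0.05. The blue points lie between -0.74 and 0.15, and the orange points spread from -3.45 for Mmrn1 to 1.07 for Apln.

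Among the 3 VEGF receptors, none passed in pMx versus sham by limma (1, Kdr, at an unadjusted p below 0.05), and 2 fell in sham versus intact. Kdr, which encodes VEGFR2, the main signaling receptor for VEGF-A, was at 33.79, 37.91 and 25.40 TPM in intact, 21.95, 23.16 and 18.41 TPM in sham and 25.45, 28.09 and 32.62 TPM in pMx libraries. Sham was below every other library, and pMx overlapped with intact. Its log2 fold change was -0.58 (SE 0.16, adjusted p = 0.0470 from limma) in sham versus intact and 0.42 (95% interval 0.06 to 0.78, adjusted p = 0.0658) in pMx versus sham. The adjusted p of the second difference was 0.0179 without intact replicate 3, and the call of the first was lost without any one of the other 8 libraries, with an adjusted p of up to 0.127.

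Flt1, which encodes VEGFR1, a receptor that binds VEGF-A and placental growth factor, was at 46.83 to 58.30 TPM in intact, 31.84 to 35.94 TPM in sham and 32.94 to 43.23 TPM in pMx libraries. Its sham and pMx libraries overlapped and all were below the intact ones. The log2 fold change was -0.60 (SE 0.12, adjusted p = 0.0169 from limma) in sham versus intact and 0.09 (95% interval -0.17 to 0.36) in pMx versus sham. The first call was lost without intact replicate 2 or without sham replicate 1 or 2, with an adjusted p of up to 0.0543. Flt4, the VEGF-C receptor gene that is strongest in lymphatic endothelium, was at 5.92, 8.71 and 6.71 TPM in intact, 5.41, 6.19 and 6.09 TPM in sham and 5.49, 5.79 and 5.37 TPM in pMx libraries. These groups overlapped in both steps, with a log2 fold change of -0.07 (95% interval -0.37 to 0.22, adjusted p = 0.712) in pMx versus sham.

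Of the TIE receptors and the phosphatase that acts on TIE2, Tek and Ptprb fell in pMx versus sham while Tie1 did not pass. Tek encodes TIE2, the angiopoietin receptor, and was at 80.79, 94.02 and 65.68 TPM in intact, 56.98, 57.60 and 55.98 TPM in sham and 34.01, 34.72 and 47.08 TPM in pMx libraries. The 3 groups did not overlap. Its log2 fold change was -0.56 (SE 0.15, adjusted p = 0.0187 from limma) in pMx versus sham, a call that was lost without any one of the 3 sham libraries or without pMx replicate 1 or 2 (adjusted p up to 0.0688).

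Ptprb, which encodes the endothelial phosphatase VE-PTP, stepped down in the same order without overlap, from 67.77, 78.16 and 55.96 TPM in intact to 44.04, 46.24 and 42.16 TPM in sham and 24.69, 28.03 and 30.76 TPM in pMx libraries. It fell by 0.59 (SE 0.12, adjusted p = 0.0210 from limma) on the log2 scale in sham versus intact and by 0.65 (SE 0.12, adjusted p = 0.00374) in pMx versus sham. The first call was lost without intact replicate 2 or any one sham library (adjusted p up to 0.0682). Tie1, an orphan receptor that modulates TIE2, was at 123.61, 139.55 and 106.19 TPM in intact, 121.95, 128.29 and 122.60 TPM in sham and 118.50, 128.78 and 150.09 TPM in pMx libraries. All 3 groups overlapped. The intervals of its log2 fold change were -0.23 to 0.28 in sham versus intact and -0.17 to 0.34 in pMx versus sham.

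The junction and adhesion genes of resting endothelium divided in pMx versus sham, with Cldn5 and Icam2 falling and Pecam1, Cdh5 and Esam not passing. Cldn5 encodes claudin-5, the main tight junction claudin of endothelium. Its level was 102.36, 139.24 and 97.66 TPM in intact, 75.00, 84.08 and 89.71 TPM in sham and 26.81, 29.28 and 35.37 TPM in pMx libraries. Every pMx library was below every sham library. The mean was 2.72-fold lower in pMx than in sham, with a log2 fold change of -1.42 (SE 0.15, adjusted p = 2.01e-04 from limma).

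Cdh5, which encodes VE-cadherin of the adherens junction, was at 164.34, 174.65 and 122.03 TPM in intact, 117.51, 123.50 and 97.69 TPM in sham and 131.09, 139.19 and 156.09 TPM in pMx libraries. Here the pMx libraries were all above the sham libraries and overlapped with the intact ones. The log2 fold change in pMx versus sham was 0.33 (95% interval 0.00 to 0.66, adjusted p = 0.108), and without intact replicate 3 its adjusted p was 0.0258 from limma. Pecam1, which encodes the adhesion molecule CD31, had overlapping sham and pMx libraries (174.52 to 198.31 and 149.12 to 194.32 TPM) and a log2 fold change of -0.17 (95% interval -0.50 to 0.15). Esam, a tight junction adhesion gene, was at 104.61 to 144.54 TPM in intact, 84.02 to 90.03 TPM in sham and 75.34 to 100.70 TPM in pMx libraries. It fell in sham versus intact (log2 fold change -0.50, SE 0.14, adjusted p = 0.0476 from limma), a call lost in 7 of 9 fits that each left out a library, and the interval in pMx versus sham was -0.36 to 0.27. Icam2, a ligand of leukocyte integrins kept on resting endothelium, had 3 groups that did not overlap, at 115.74 to 135.88, 91.08 to 106.73 and 61.93 to 71.38 TPM. It fell in both steps, by 0.37 (SE 0.09, adjusted p = 0.0317 from limma) and by 0.59 (SE 0.09, adjusted p = 0.00123) on the log2 scale, and the first call was lost in 5 of the 9 fits that left out a library.

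**Figure D3:**
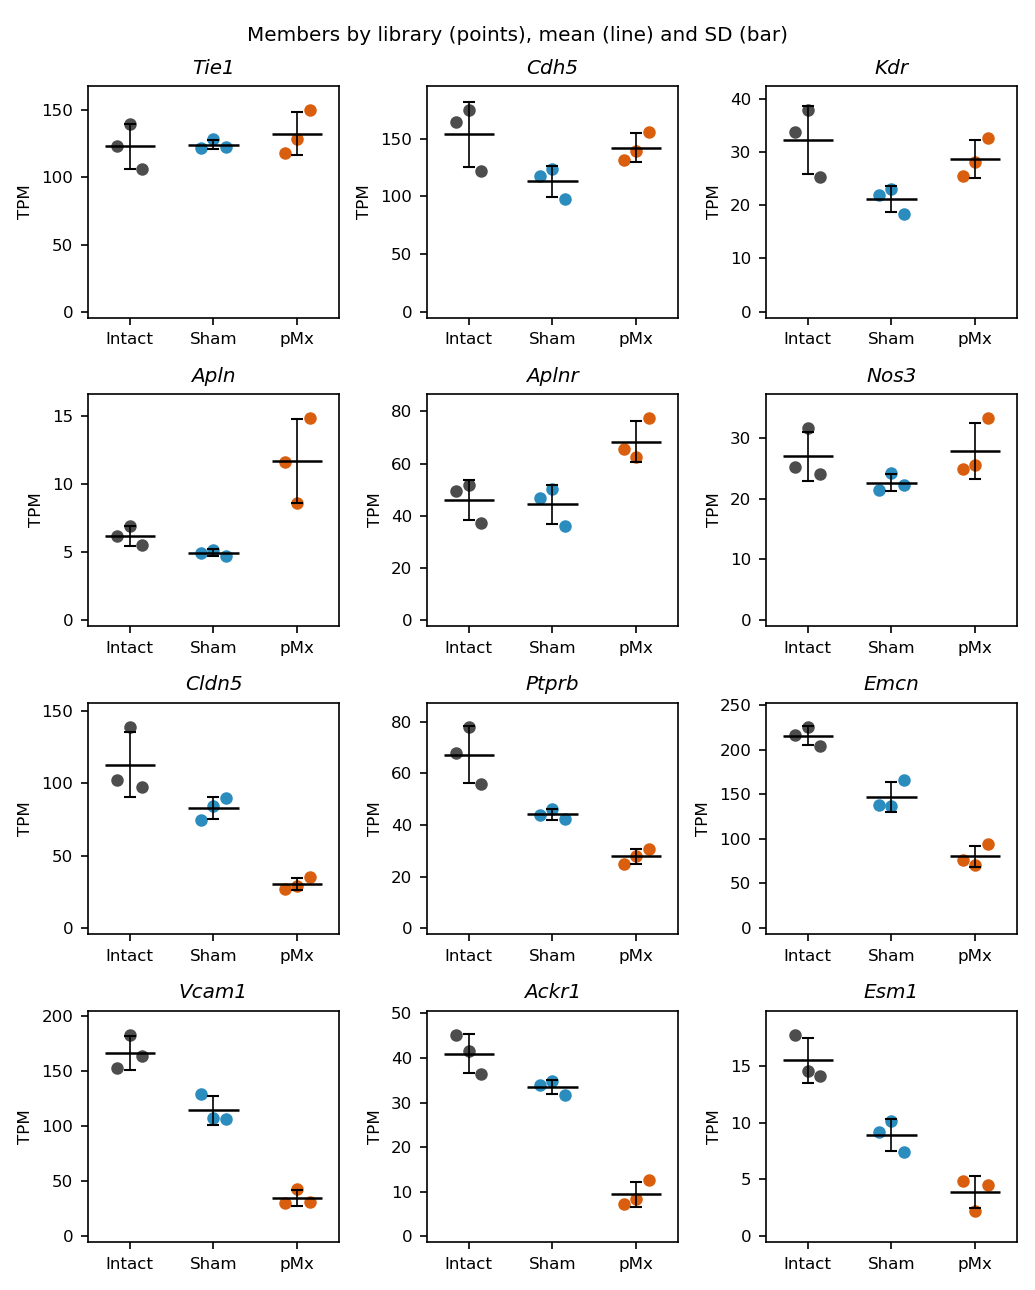
TPM of 12 members in each library (points), with the group mean (line) and SD (bar) for intact, sham and pMx. Tie1 overlaps across the groups, Apln and Aplnr are highest in the pMx libraries, and Cldn5, Ptprb, Emcn, Vcam1, Ackr1 and Esm1 step down from intact to sham to pMx without overlap.

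Surface glycoproteins and their matrix partners gave 4 falls among 6 members in pMx versus sham. Emcn, which encodes the anti-adhesive sialomucin endomucin of capillaries and venules, was at 216.09, 225.62 and 204.52 TPM in intact, 137.93, 137.09 and 166.00 TPM in sham and 76.76, 70.58 and 93.94 TPM in pMx libraries. The groups were fully separate. Its log2 fold changes were -0.55 (SE 0.11, adjusted p = 0.0200 from limma) in sham versus intact and -0.87 (SE 0.11, adjusted p = 6.04e-04) in pMx versus sham, so that it was 2.68-fold lower in pMx than in intact libraries. The sham call was lost without intact replicate 2 or sham replicate 1 or 2 (adjusted p up to 0.0785). Clec14a, a C-type lectin of endothelium, and Mmrn2, the matrix protein that binds it, both fell in pMx versus sham. Clec14a was at 66.12 to 70.09 TPM in sham and 38.88 to 54.73 TPM in pMx libraries, and Mmrn2 at 59.41 to 64.75 and 36.59 to 47.76 TPM. The log2 fold change of each was -0.62 in pMx versus sham (SE 0.13 and 0.14, adjusted p = 0.00534 and 0.00806 from limma), and no library of one group overlapped the other.

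Plvap was at 389.02, 398.37 and 320.83 TPM in intact, 271.18, 273.39 and 267.90 TPM in sham and 202.98, 204.16 and 245.69 TPM in pMx libraries. The 3 groups were separate, and the smallest gap was between sham replicate 3 and pMx replicate 3. It fell by 0.44 (adjusted p = 0.0280 from limma) and by 0.32 (adjusted p = 0.0370) on the log2 scale in the successive steps. Both calls were lost without any one sham library, the first also without intact replicate 1 or 2 (adjusted p up to 0.0860) and the second also without pMx replicate 1 or 2 (up to 0.123). Egfl7, a matrix protein secreted by endothelium, was at 147.41 to 185.29 TPM in intact, 96.68 to 123.13 TPM in sham and 87.20 to 108.36 TPM in pMx libraries. It fell in sham versus intact (log2 fold change -0.56, SE 0.13, adjusted p = 0.0276 from limma), a call lost without intact replicate 1 or 2 or sham replicate 1 or 2, and in pMx versus sham its log2 fold change was -0.25 (95% interval -0.54 to 0.04). Eng was at 195.94, 221.31 and 166.51 TPM in intact, 186.75, 190.29 and 164.66 TPM in sham and 200.34, 219.79 and 241.07 TPM in pMx libraries. All its pMx libraries were above all sham libraries, with a log2 fold change of 0.28 (95% interval 0.02 to 0.55, adjusted p = 0.0842), and the adjusted p was 0.0303 from limma without intact replicate 3.

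None of the 3 endothelial transcription factors passed in pMx versus sham by limma, and 0 did at an unadjusted p below 0.05. Erg, an ETS factor that maintains endothelial identity, was at 33.27, 34.66 and 34.28 TPM in sham and 31.06, 29.10 and 36.01 TPM in pMx libraries, which overlapped (log2 fold change -0.09, 95% interval -0.38 to 0.20). Sox18, a factor of vascular and lymphatic development, was at 55.25 to 66.73 TPM in sham and 59.32 to 70.94 TPM in pMx libraries, with an interval of -0.23 to 0.56. Sox17, a factor linked to arterial endothelium, was at 26.82, 35.30 and 21.25 TPM in intact, 17.28, 21.24 and 14.20 TPM in sham and 11.63, 13.37 and 13.32 TPM in pMx libraries. For Sox17 each group lay below the one before. Neither step passed (adjusted p = 0.0684 and 0.124), although the first passed without intact replicate 3 (adjusted p = 0.0205 from limma), with median-of-ratios rescaling (0.0414) and with the replicate number as a block (0.0443). The direct comparison of pMx with intact passed (log2 fold change -1.04, SE 0.19, adjusted p = 0.00201 from limma). Nos3, the endothelial nitric oxide synthase gene, was at 21.41 to 24.29 TPM in sham and 24.99 to 33.28 TPM in pMx libraries. These did not overlap, but the difference did not pass (log2 fold change 0.28, 95% interval -0.03 to 0.59).

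The tip cell and apelin genes went in opposite directions in pMx versus sham, with Apln and its receptor gene Aplnr rising and Esm1 falling. Apln encodes apelin, a peptide that sprouting endothelium secretes. Its level was 6.15, 6.93 and 5.48 TPM in intact, 4.94, 5.17 and 4.69 TPM in sham and 11.62, 8.59 and 14.80 TPM in pMx libraries. All pMx libraries were above all others, and they also varied most among themselves. The mean was 2.37-fold higher in pMx than in sham, with a log2 fold change of 1.07 (SE 0.17, adjusted p = 0.00168 from limma). Without pMx replicate 3 the log2 fold change was 0.89 (adjusted p = 0.00409), below the DEG threshold of 1.

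Aplnr was at 49.29, 51.67 and 37.09 TPM in intact, 46.75, 50.39 and 35.86 TPM in sham and 65.41, 62.48 and 77.30 TPM in pMx libraries. The intact and sham ranges overlapped, and the pMx range was above both. Its log2 fold change was 0.62 (SE 0.16, adjusted p = 0.0163 from limma) in pMx versus sham, with an adjusted p of 0.0537 without sham replicate 3 and of 0.0582 without pMx replicate 3. Dll4, the Notch ligand of tip cells and arteries, was at 7.69, 9.77 and 7.87 TPM in sham and 9.85, 10.58 and 12.52 TPM in pMx libraries, which were separate by a narrow gap (log2 fold change 0.34, 95% interval -0.05 to 0.74, adjusted p = 0.160).

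Esm1, which encodes the VEGF-induced proteoglycan endocan, was at 17.71, 14.58 and 14.10 TPM in intact, 9.14, 10.17 and 7.41 TPM in sham and 4.90, 2.27 and 4.53 TPM in pMx libraries. It stepped down without overlap, opposite to Apln. Its log2 fold changes were -0.74 (95% interval -1.25 to -0.22, adjusted p = 0.0673) in sham versus intact and -1.05 (SE 0.22, adjusted p = 0.00684 from limma) in pMx versus sham. Without pMx replicate 2 the second value was -0.78 and without sham replicate 2 it was -0.96, both short of the DEG threshold while the adjusted p stayed below 0.05 (0.00796 and 0.0265).

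Of the venous and leukocyte adhesion genes, Vcam1, Ackr1 and Vwf fell in pMx versus sham and the selectin genes did not pass. Vcam1 encodes the vascular adhesion molecule that binds integrins of leukocytes. Its level was 152.97, 183.05 and 163.86 TPM in intact, 129.70, 107.91 and 106.33 TPM in sham and 30.08, 43.08 and 31.38 TPM in pMx libraries. The groups were separate, and the highest pMx library was below the lowest sham library by more than the range of either group. The mean was 3.29-fold lower in pMx than in sham (log2 fold change -1.70, SE 0.14, adjusted p = 7.26e-05 from limma). In sham versus intact the log2 fold change was -0.54 (adjusted p = 0.0433), a call lost in 8 of 9 fits that each left out a library.

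Ackr1, which encodes the chemokine-binding receptor of venules, was at 45.15, 41.46 and 36.29 TPM in intact, 33.94, 34.76 and 31.66 TPM in sham and 7.30, 8.36 and 12.65 TPM in pMx libraries. The intact and sham libraries lay close to each other and the pMx libraries far below. Its mean was 3.55-fold lower in pMx than in sham (log2 fold change -1.76, SE 0.17, adjusted p = 1.42e-04 from limma), and the interval in sham versus intact was -0.67 to 0.11. Vwf, which encodes the clotting factor stored in endothelial granules, was at 46.67, 49.83 and 43.24 TPM in sham and 22.13, 30.34 and 34.34 TPM in pMx libraries, with no overlap and a log2 fold change of -0.69 (SE 0.15, adjusted p = 0.00806 from limma). Sele and Selp, which encode the E- and P-selectins on which leukocytes roll, had overlapping libraries. Sele was at 12.83, 13.16 and 10.13 TPM in sham and 8.75, 9.89 and 17.84 TPM in pMx libraries, so that pMx replicate 3 was the highest of all 9 libraries and pMx replicates 1 and 2 were below every sham library. The intervals in pMx versus sham were wide, at -0.60 to 0.51 for Sele and -0.67 to 0.23 for Selp.

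Vcam1 is also made by lining fibroblasts of synovium and Ackr1 by red cell precursors, and lists of those cells are given beside them. Of 7 synovial lining genes, 5 fell in pMx versus sham and none rose, where 18.9% of all genes fell and 17.7% rose. Their summed level was 2239 to 3068 TPM in sham and 1319 to 2067 TPM in pMx libraries. Clic5 and Htra4, lining genes with the largest falls, were 18.3-fold and 9.17-fold lower in pMx than in sham. Prg4, which held the largest part of these sums, overlapped, at 1244.64 to 1450.96 TPM in sham and 1084.36 to 1737.63 TPM in pMx libraries. Its log2 fold change was 0.12 (adjusted p = 0.680 from limma). Has1 did not pass either (log2 fold change -0.47, adjusted p = 0.0524). Of 6 red blood cell genes, 4 fell in pMx versus sham, from a sum of 9385 to 14254 TPM in sham to 792 to 923 TPM in pMx libraries. Vwf, Selp and Mmrn1 are shared with platelets, of whose 9 genes tested the integrin gene Itgb3 rose and its partner Itga2b fell, with sums of 171 to 244 TPM in sham and 160 to 163 TPM in pMx libraries. Pf4, a chemokine gene of the platelet list that did not pass, made up most of these sums. It was at 151.48 to 223.56 TPM in sham and 136.20 to 137.28 TPM in pMx libraries. Gp9 and Gp1ba were at or below 0.64 and 0.12 TPM in the same libraries, and how far the sums reflect platelets was not tested. Among other platelet genes that did not pass, Gp6 was higher in every pMx library than in the sham libraries (1.47 to 1.84 against 1.15 to 1.44 TPM), Treml1 was lower in every pMx library, and Gp1bb, Gp1ba and Gp9 overlapped. Gp9 was at 0 TPM in sham replicate 1 and in every pMx library. Ppbp, at 0 TPM in every sham and pMx library, was not tested. For sham versus intact, in which Vcam1 and 10 other members fell, 4 of the 7 lining genes fell, from a sum of 4131 to 5518 TPM in intact libraries. In that comparison 5.97% of all genes fell and 6.73% rose. All 6 red blood cell genes fell, from a sum of 18810 to 36320 TPM in intact libraries, with a median log2 fold change of -1.27. Of the 9 genes tested from the platelet list, 3 rose (Pf4, Gp6 and Itgb3) and 1 fell (Gp9), and their sum was 90.3 to 119 TPM in intact libraries. The part of these cells in the changes of the members was not tested.

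The 3 lymphatic members all fell in pMx versus sham, whereas for sham versus intact none passed by limma (0 at an unadjusted p below 0.05). Mmrn1 (gene identifier 500152), which encodes multimerin-1 and marks lymphatic endothelium, was at 12.58, 15.34 and 17.42 TPM in intact, 14.85, 11.32 and 17.88 TPM in sham and 0.22, 0.53 and 0.50 TPM in pMx libraries. Intact and sham overlapped, and all 3 pMx libraries were below 1 TPM. The mean was 35.2-fold lower in pMx than in sham (log2 fold change -3.45, SE 0.18, adjusted p = 1.60e-05 from limma), the largest difference of any member. With a pseudocount of 0.1 in place of 1, the log2 fold change was -4.88.

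Prox1 (gene identifier 305066), the transcription factor that specifies lymphatic identity, was the lowest member in every group. Its level was 0.66, 1.02 and 1.06 TPM in intact, 0.60, 0.98 and 0.85 TPM in sham and 0.06, 0.14 and 0 TPM in pMx libraries. The pMx libraries were all below the lowest sham library, and 1 of them was listed at 0. The log2 fold change was -0.76 (SE 0.11, adjusted p = 0.00104 from limma) on the log2(TPM + 1) scale, which understates the change of a gene this low. It was -2.52 with a pseudocount of 0.1. In sham versus intact the interval was -0.33 to 0.18.

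Lyve1 (gene identifier 293186), the hyaluronan receptor gene of lymphatic capillaries, was at 25.02, 16.33 and 18.19 TPM in intact, 23.87, 16.50 and 23.55 TPM in sham and 4.46, 4.09 and 2.52 TPM in pMx libraries. Intact and sham again overlapped, with the pMx libraries far below. The mean was 5.77-fold lower in pMx than in sham (log2 fold change -2.26, SE 0.22, adjusted p = 1.52e-04 from limma). Flt4, the fourth gene of lymphatic endothelium among the members, did not pass, as described above.

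**Figure D4:**
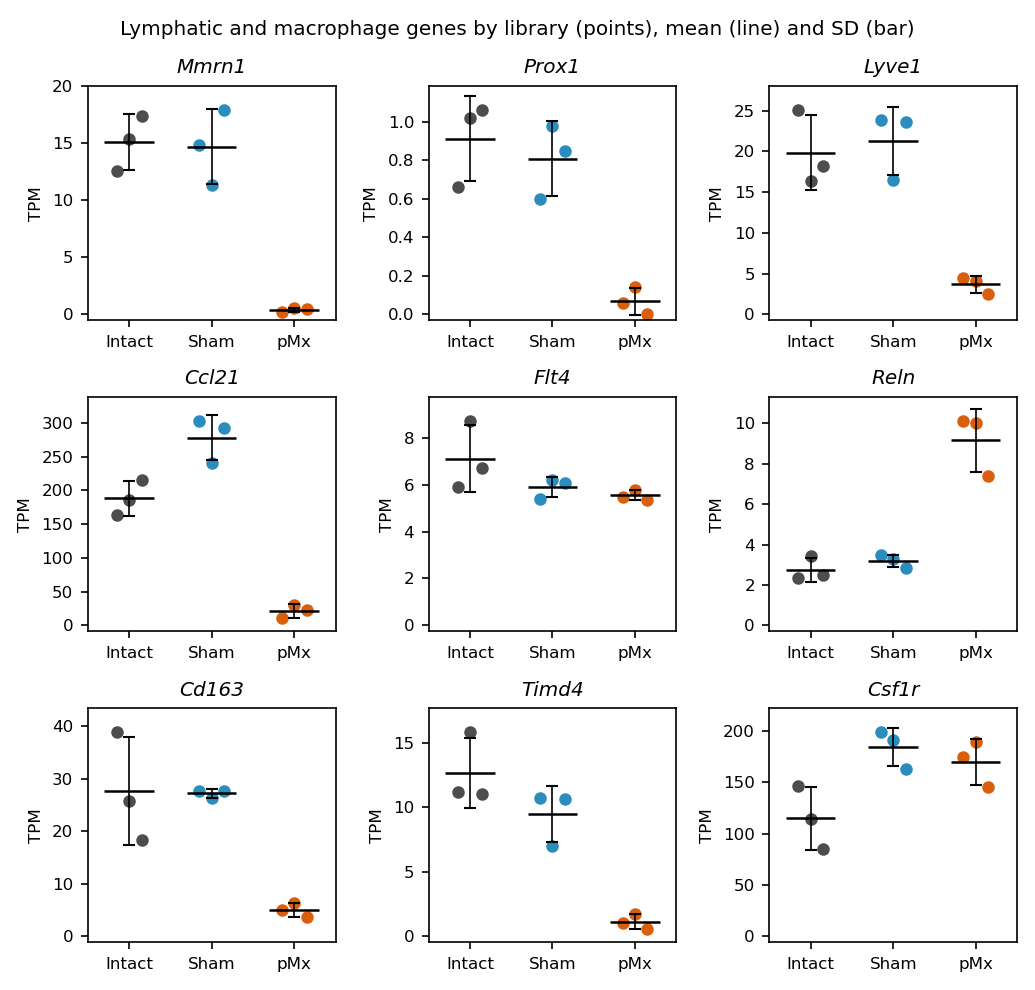
TPM of the lymphatic members Mmrn1, Prox1, Lyve1 and Flt4, of Ccl21 and Reln from a further lymphatic list and of the macrophage genes Cd163, Timd4 and Csf1r in each library (points), with the group mean (line) and SD (bar). Mmrn1, Prox1, Lyve1, Ccl21, Cd163 and Timd4 are lowest in the 3 pMx libraries, Flt4 and Csf1r overlap between sham and pMx, and Reln is highest in pMx.

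In a list of 10 further lymphatic genes, 2 fell, 1 rose and 7 did not pass in pMx versus sham. Over all genes tested, 18.9% fell and 17.7% rose. Ccl21, a chemokine of lymphatic endothelium that draws dendritic cells, was at 163.63, 185.71 and 215.68 TPM in intact, 301.95, 240.07 and 292.17 TPM in sham and 10.14, 29.75 and 23.10 TPM in pMx libraries. It was highest in sham and lowest in pMx, without overlap, and the mean was 13.2-fold lower in pMx than in sham (log2 fold change -3.78, SE 0.32, adjusted p = 8.21e-05 from limma). Tbx1, a T-box factor of lymphatic development, fell by 1.18 on the log2 scale (adjusted p = 0.00434). Reln, a secreted matrix protein that lymphatic endothelium also makes, rose by 1.27 (adjusted p = 4.02e-04). Pdpn and Maf rose in sham versus intact, with log2 fold changes of 0.62 and 0.33 (adjusted p = 0.0188 and 0.0240), and fibroblasts and macrophages make them too.

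Lyve1 is also made by resident tissue macrophages. Of 11 macrophage genes, 6 fell and 1 rose in pMx versus sham, where 18.9% of all genes fell and 17.7% rose. Their summed level was 2244 to 2367 TPM in sham and 1385 to 1930 TPM in pMx libraries. The resident macrophage genes Vsig4, Timd4 and Cd163 fell by 2.79, 2.32 and 2.24 on the log2 scale (adjusted p = 3.04e-04, 1.95e-04 and 2.59e-04 from limma). The other falls of the list were smaller, in C1qc, Folr2 and C1qb (log2 fold changes -0.73, -0.70 and -0.67). Mrc1, Csf1r, C1qa and Adgre1 did not pass. Mrc1 was at 74.8 ± 8.39 TPM (SD, n = 3) in sham and 78.7 ± 7.81 TPM (SD, n = 3) in pMx, with a log2 fold change of 0.08. Csf1r, the receptor gene that all macrophages carry, was at 184 ± 18.8 TPM (SD, n = 3) in sham and 170 ± 22.2 TPM (SD, n = 3) in pMx. Cd68 rose by 0.47 on the log2 scale. Prox1 and Ccl21 fell as well, and how much of the fall of Lyve1 came from either cell type was not tested.

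To see which members moved apart from the bulk of endothelial RNA, each was also expressed relative to 5 pan-endothelial genes (Pecam1, Cdh5, Tie1, Esam and Erg) in the same library. The mean log2(TPM + 1) of these 5 was 7.00, 7.11 and 6.66 in intact, 6.57, 6.66 and 6.52 in sham and 6.50, 6.51 and 6.80 in pMx libraries. Sham and pMx overlapped, and none of the 5 passed in pMx versus sham. At an unadjusted p below 0.05 in limma, 1 of them, Cdh5, differed. The relative scale has no test here, and its 5 genes were chosen with earlier results of these data known. Of the other 28 members, 17 had all pMx libraries below all sham libraries (60.7%, against 23.3% of all genes outside the 5), 6 had them above (21.4%, against 16.4%) and 5 overlapped. In sham versus intact, 7 were lower (25.0%, against 2.11%), 3 higher (10.7%, against 52.2%) and 18 overlapped. A shift of the 5 genes themselves moves every gene on this scale.

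The largest shifts relative to the 5 genes in pMx versus sham were those of Mmrn1 (-3.48), Lyve1 (-2.28), Ackr1 (-1.78), Vcam1 (-1.72), Cldn5 (-1.44) and Esm1 (-1.07). On the same log2 scale the 6 higher members were Apln (1.04), Aplnr (0.60), Kdr (0.40), Dll4 (0.32), Eng (0.26) and Nos3 (0.26). Aplnr, for example, was at -1.41 to -1.35 in intact, -1.31 to -0.97 in sham and -0.52 to -0.44 in pMx libraries. By this measure Egfl7 and Sox17 also had every pMx library below the lowest sham library (differences of -0.27 and -0.44), although neither passed the test on its own level.

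**Figure D5:**
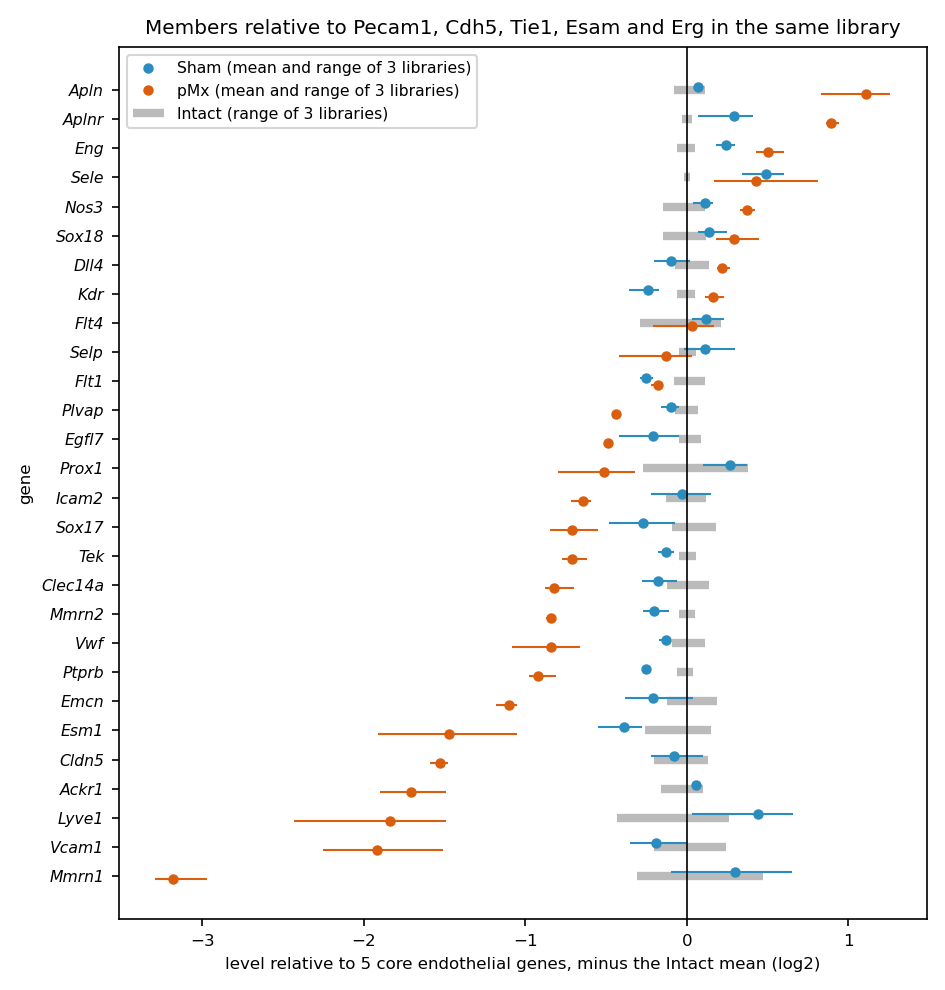
For each of 28 members, the log2 level relative to Pecam1, Cdh5, Tie1, Esam and Erg in the same library is shown with the intact mean set to 0, as points with the range of 3 libraries for sham (blue) and pMx (orange) and a gray bar for the intact range. Sham points stay between -0.39 and 0.49, while pMx points run from -3.18 for Mmrn1 to 1.11 for Apln.

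Ligands of the receptors above were described from a list of 7 VEGF and angiopoietin genes. In pMx versus sham, Vegfa and Pgf rose, and Vegfb, Vegfc, Vegfd, Angpt1 and Angpt2 fell. Vegfa, the main angiogenic VEGF, was at 26.11, 28.52 and 23.30 TPM in sham and 32.06, 36.95 and 35.79 TPM in pMx libraries (log2 fold change 0.42, adjusted p = 0.0381 from limma). Pgf, placental growth factor, was at 10.92, 11.09 and 8.27 TPM in sham and 18.66, 21.96 and 27.80 TPM in pMx libraries (log2 fold change 1.09, adjusted p = 0.00124). For both ligands the pMx libraries were all above the sham libraries. Among those that fell were the lymphangiogenic ligand genes Vegfd and Vegfc, by 1.53 and 0.60 on the log2 scale (adjusted p = 7.32e-04 and 0.00549), and the TIE2 ligand genes Angpt2 and Angpt1, by 0.76 and 0.49 (adjusted p = 0.00168 and 0.0298). Angpt2 and Angpt1 had also fallen in sham versus intact, by 0.79 and 0.71 (adjusted p = 0.00790 and 0.0200).

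A list of 13 genes linked to angiogenic sprouting, which shares Pgf and Angpt2 with the ligands, gave 7 rises and 2 falls in pMx versus sham (median log2 fold change 0.62). Over all genes tested, 17.7% rose and 18.9% fell. Fscn1, an actin-bundling protein of cell protrusions, and Nid2, a basement membrane protein, had the largest rises, at 1.65 and 1.24 (adjusted p = 5.98e-05 and 6.32e-04 from limma). Angpt2 fell, as did Adm, the vasodilator peptide adrenomedullin, by 0.72 (adjusted p = 0.00391). Cxcr4, a chemokine receptor gene, had the largest rise of the list in sham versus intact, from 9.66 ± 0.403 TPM (SD, n = 3) to 24.2 ± 6.26 TPM (SD, n = 3), and was at 54.6 ± 7.51 TPM (SD, n = 3) in pMx. Fibroblasts and leukocytes make several of these genes too, and their part was not tested.

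Endothelial genes beyond the members were taken from a list of 26, of which 12 fell, 1 rose and 13 did not pass in pMx versus sham. Over all genes tested, 18.9% fell and 17.7% rose. Calcrl and Jam2, a receptor for adrenomedullin and a junction molecule, had the largest falls, at 1.40 and 1.13 on the log2 scale (adjusted p = 7.66e-05 and 1.52e-04 from limma). Tspan18, a tetraspanin gene, rose by 0.60 (adjusted p = 0.0164). Among 14 arterial genes, 3 rose, 4 fell and 7 did not pass, where 17.7% of all genes rose and 18.9% fell. The largest rises were in the guidance receptor gene Unc5b (1.23, adjusted p = 2.17e-04 from limma) and the Notch receptor gene Notch4 (0.62, adjusted p = 0.0113). The largest falls were in Cxcl12 (-1.31, adjusted p = 1.08e-04) and Bmx (-0.98, adjusted p = 4.48e-04). Cxcl12 was the highest of the 14 in sham, at a mean of 240 TPM, and which cells made it was not tested. Of 3 venous genes, Nr2f2, the venous identity factor, fell by 0.61 (adjusted p = 0.00979) and the other 2 did not pass.

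Of 10 genes for capillaries and endothelial lipid handling, 8 fell and 1 rose in pMx versus sham, with a median log2 fold change of -1.38. Over all genes tested, 18.9% fell and 17.7% rose. Gpihbp1, which carries lipoprotein lipase onto the capillary surface, was at 114.77, 136.24 and 107.71 TPM in intact, 51.20, 51.00 and 47.78 TPM in sham and 14.56, 13.83 and 13.10 TPM in pMx libraries. Its groups were fully separate in both steps, with log2 fold changes of -1.24 (SE 0.09, adjusted p = 7.58e-04 from limma) and -1.78 (SE 0.09, adjusted p = 1.16e-05). The capillary factor gene Tcf15 fell by 1.32 in sham versus intact (adjusted p = 0.0127) and by 0.99 in pMx versus sham (adjusted p = 0.0119). The fatty acid transport genes Fabp4 and Cd36 had the largest falls of the list in pMx versus sham (log2 fold changes -3.32 and -3.01), and Fabp5 rose by 0.84. Adipocytes also make Fabp4 and Cd36, and 9 of 10 adipocyte genes fell in the same comparison, from a sum of 2791 to 3720 TPM in sham to 125 to 220 TPM in pMx libraries. In sham versus intact, 0 of the 10 passed by limma (0 at an unadjusted p below 0.05), and their sums overlapped, at 521 to 4024 TPM in intact and 2791 to 3720 TPM in sham libraries. The part of adipocytes in these changes was not tested.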

How the data were processed

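Per the labels, mRNA of each of 9 libraries was captured on oligo-dT beads and made into dUTP second-strand libraries for DNA nanoball sequencing. The authors deposited TPM for 17602 genes, rounded to 2 decimals, and the submitters' processing notes name HISAT2 2.0.4 and the build mRatBN7.2. The counting tool is not given in the sources used here. Because TPM shares a fixed total, a large rise of a few genes lowers the others. All 9 columns were mapped to samples by title.

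From the deposited TPM, log2(TPM + 1) of 16512 genes (those with a value above 0 TPM in 3 or more libraries) was fitted in limma 3.58.1 under R 4.3.3 (1 mean per group over 9 libraries, eBayes with trend), with Benjamini-Hochberg adjustment across all genes. A DEG passed the adjusted threshold of 0.05 with a log2 fold change beyond 1 in either direction. The fit was tested on simulated data for pMx versus sham: of 16512 genes, 200 were given a log2 change of 2, and 96% of these were recovered with 1 false call. The 200 were drawn from the better expressed genes, noise was independent for each gene, and a call needed the DEG threshold. The simulation therefore does not measure calls by adjusted p alone, smaller changes or genes of low level. Tables and figures used Python 3.11.15, pandas 2.3.3, SciPy 1.17.1 and Matplotlib 3.10.9.

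The members and lists were chosen with earlier results of these data known. Named genes were all members, up to 2 genes with the largest rise and 2 with the largest fall per list, and defining markers of other cells. The ligand list was named in full, and the motif strings were chosen after the data were seen. Alternatives were leaving out each library, the replicate number as a block, fits on 6 libraries, eBayes without trend, rescaling by median-of-ratios, filters (none, or a mean of at least 1 TPM) and smaller pseudocounts (0.1 and 0.01).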

Additional observations from a re-analysis of the deposited data

How the results depend on the processing

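The falls in pMx versus sham numbered 13 to 15 members in all settings (39.4% to 45.5%, against 14.5% to 23.5% of all genes), and 12 of the 15, together with the rise of Apln, kept an adjusted p below 0.05 throughout. The exceptions were Tek, Plvap and Aplnr, and Prox1 could not be tested with a minimum mean of 1 TPM. The rises in pMx versus sham numbered 5 with median-of-ratios rescaling and 5 with the 6 libraries of the comparison (15.2% each, against 20.5% and 21.2% of all genes), which added Kdr, Cdh5 and Eng, and between 1 and 5 with a library left out (3.03% to 15.2%, against 12.7% to 22.1%). The higher DEGs ranged from 0 (without pMx replicate 3, 2 members higher at an unadjusted p below 0.05, or 6.06%, against 20.5% of all genes) to 1. The falls in sham versus intact numbered 14 with median-of-ratios rescaling (42.4%, against 6.95% of all genes) and 13 with a minimum mean of 1 TPM (40.6%, against 7.85%). They numbered 11 with a pseudocount of 0.1 or 0.01 (33.3% each, against 5.29% and 4.95%). There were 9 with no filter (27.3%, against 5.18%) and 9 without the variance trend (27.3%, against 6.02%). Falls numbered 4 with the 6 libraries of the comparison (12.1%, against 1.70%) and 0 to 17 with a library left out (0% to 51.5%, against 1.54% to 11.8%). At 0 falls (without intact replicate 2, sham replicate 1 or sham replicate 2), 16, 17 and 20 members were lower at an unadjusted p below 0.05 (48.5%, 51.5% and 60.6%, against 11.8%, 12.5% and 11.5% of all genes). In pMx versus intact the rises ranged from 1 to 2 (3.03% to 6.06%, against 20.1% to 23.0% with a library left out). Members that had not passed in sham versus intact but did in at least 1 setting were Tek, Pecam1, Cdh5, Sox17, Sox18, Erg, Esm1, Dll4 and Vwf. The cause of these shifts was not tested.

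Same-numbered libraries showed no pairing that held in all 3 comparisons. The correlation of their deviations across genes was 0.03 to 0.48 between pMx and sham, where 2 of 3 pMx libraries correlated best with their own number. It was -0.49 to 0.00 between sham and intact and -0.66 to -0.38 between pMx and intact. With the replicate block there were 4 falls in sham versus intact (12.1%, against 3.74% of all genes, and 19, or 57.6%, lower at an unadjusted p below 0.05, against 14.5% of all genes), 2 rises and 14 falls in pMx versus sham (6.06% and 42.4%, against 17.8% and 17.9%), without Plvap (adjusted p = 0.0772 from limma), and 2 rises and 21 falls in pMx versus intact (6.06% and 63.6%, against 23.5% and 26.2%).

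With a library left out, log2 fold changes that had not passed crossed 0. In pMx versus sham the ranges were -0.02 to 0.17 for Flt1, -0.01 to 0.16 for Tie1, -0.18 to 0.03 for Esam and -0.33 to 0.14 for Sele. In sham versus intact they were -0.08 to 0.12 for Tie1, -0.20 to 0.09 for Aplnr, -0.02 to 0.27 for Lyve1, -0.18 to 0.01 for Prox1 and -0.19 to 0.11 for Mmrn1. In pMx versus intact they were -0.26 to 0.00 for Cdh5, -0.24 to 0.11 for Sox18, -0.08 to 0.16 for Nos3, -0.27 to 0.06 for Dll4 and -0.18 to 0.29 for Sele. No member that had passed changed direction. With 3 libraries per group and unknown depth, small differences and the levels of Prox1 and Mmrn1 in pMx, near 0 TPM, are the least certain.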

Other observations

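Mural cells, which wrap vessels, were described from a list of 13 pericyte and smooth muscle genes. In pMx versus sham 6 fell, 1 rose and 6 did not pass, where 18.9% of all genes fell and 17.7% rose. The contractile smooth muscle genes Myh11 and Cnn1 had the largest falls (-2.85 and -2.31 on the log2 scale, limma adjusted p = 5.20e-05 and 2.03e-04). Acta2, smooth muscle actin, was at 1455 ± 200 TPM (SD, n = 3) in sham and 564 ± 32.0 TPM (SD, n = 3) in pMx. Pdgfrb, a receptor gene of pericytes and fibroblasts, rose by 0.85 (adjusted p = 0.00825), and the pericyte gene Rgs5 was at 616 ± 25.9 TPM (SD, n = 3) in sham and 653 ± 69.6 TPM (SD, n = 3) in pMx (adjusted p = 0.597). In sham versus intact, Myh11 and Acta2 fell by 0.94 and 0.73 (adjusted p = 0.0291 and 0.0464).

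Schwann cells, which accompany nerves alongside vessels, had 7 of 8 listed genes fall in pMx versus sham and none rise, where 18.9% of all genes fell and 17.7% rose. Their summed level was 130 to 181 TPM in sham and 12.5 to 15.5 TPM in pMx libraries. Of 8 sublining fibroblast genes, 3 rose and 4 fell, and their sum was 18602 to 20874 TPM in sham and 35876 to 39340 TPM in pMx libraries, with a median log2 fold change of -0.40. The collagen genes Col1a1 and Col3a1 held most of this sum, with means of 4501 and 9107 TPM in sham and 15669 and 17807 TPM in pMx. Col1a1 had the largest rise of the list (log2 fold change 1.81), and Pi16 and Dpt, genes of adventitial fibroblasts, had the largest falls (-1.86 and -1.37).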
